A study of Mus musculus with 9 samples.

Results

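The mir-574 hairpin gives rise to 2 mature miRNAs, mmu-miR-574-5p from its 5′ arm and mmu-miR-574-3p from its 3′ arm (miR-574-5p and miR-574-3p here), and these are 2 of the 1915 mature names in a table of small RNA counts from mouse milk fat. The pair was selected on the levels of miR-574-5p in the 2 diets, which differed in an earlier reading of the same table, so the diet values below are a description and carry no test. Each arm has 1 row in the table, and both passed the filter on low counts, as did 312 names in all.

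The milk came from 9 ICR (CD1) dams, an outbred stock, on lactation day 10 of a first litter. In the high-fat group, of 4 dams, fat supplied 60% of dietary energy at 5.24 kcal per g. In the control group, of 5 dams, it supplied 10% at 3.85 kcal per g. Sucrose supplied 7% of the energy in either diet, and the diets began at 4 weeks of age, 4 weeks before mating, and were kept through pregnancy and lactation. Milk fat was washed with buffered saline and spun to clear trapped cells before RNA was extracted, and each library is 1 dam. The libraries held 1905838 to 3897109 miRNA counts in the high-fat group and 837817 to 2750482 in the control group. Dams were housed in pairs of the same diet, and the pairs are not named in the labels, so cage mates may be among the dams of a group.

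A miRNA hairpin is cut by Drosha and then by Dicer to a short duplex, and an Argonaute protein keeps 1 strand, the guide, which pairs with mRNAs mainly through bases 2 to 8, the seed. In most hairpins a single arm supplies nearly all of the stable miRNA, while in some both arms are kept. miR-574-5p is rich in alternating U and G and has been described in human cells as a decoy that binds the RNA-binding protein CELF1 (CUGBP1), as well as a ligand of the endosomal receptors TLR7 and TLR8, which sense single-stranded RNA. miR-574-3p has been described as a growth-restraining miRNA in human tumour cells. Fat globules carry cytoplasm of the secretory epithelium into milk, and most of their miRNAs are thought to come from that cell.

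Both mature sequences and the hairpin are shown because the arms differ in how particular their letters are to this locus, which bears on what a read counted under each name can be. Capitals mark the seed in the mature sequences, and the 5p and then the 3p arm in the hairpin.
miR-574-5p: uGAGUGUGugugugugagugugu
miR-574-3p: cACGCUCAugcacacacccaca
mir-574 hairpin: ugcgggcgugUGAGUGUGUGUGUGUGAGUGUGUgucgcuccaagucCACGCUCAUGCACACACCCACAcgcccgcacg

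The hairpin, of 78 bases, lies on the plus strand at chr5:64970318-64970395 (RefSeq, GRCm38.p6). The 5p arm covers chr5:64970328-64970350 and the 3p arm chr5:64970364-64970385. In GENCODE M21 the hairpin sits in the intron between exons 1 and 2 of Fam114a1, in sense with that gene, 173 bases after the end of exon 1 and 247 bases after the first base of the transcript Fam114a1-201. RNAfold predicted a minimum free energy of -55.60 kcal per mol for the hairpin, with 20 of the 23 bases of the 5p arm and all 22 bases of the 3p arm paired.

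The 5p arm has 11 G, 10 U, 2 A and 0 C, begins with U, the base that Argonaute proteins often favour, and holds an unbroken alternating U and G run of 13 bases. The 3p arm has 11 C, 7 A, 2 G and 2 U and begins with C. The seed of each arm, GAGUGUG for 5p and ACGCUCA for 3p, was found in 1 of 1679 mouse mature names, its own, so neither arm had a seed relative in the RefSeq table.

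The whole 5p sequence also stands in spliced transcripts of 3 other genes, in the sense direction. These were the 5′ UTR of Celf4, which encodes a neural RNA-binding protein, the 3′ UTR of Rapgefl1, and the long non-coding RNA F630040K05Rik. A stretch of 20 bases of the 5p arm was found in transcripts of 36 other genes, and one of 16 bases in 237. The whole 3p sequence was found in 0 other genes, a stretch of 18 bases also in 0, and one of 16 bases in 5. Of 263 tested names with a RefSeq sequence, 12 (4.56%) stood whole in a transcript of a gene outside their own locus, miR-574-5p among them. The 12 also include let-7a-5p, miR-199a-3p and miR-199b-3p. Genes of other miRNAs were not left out of this count, so copies of a miRNA at another locus may be in it. Among the 8 names whose high-fat libraries all lay above the controls, miR-574-5p was the only 1. Its diet difference chose the hairpin, so nothing is read from its place there. Among the 4 names with a sequence whose high-fat libraries all lay below the controls, miR-3470b was the only 1. Introns and intergenic repeats were not searched, and what part of the reads counted as miR-574-5p came from outside the hairpin was not tested.

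miR-574-5p was higher in every high-fat library than in any control, and miR-574-3p overlapped between the diets. The 5p arm measured 125, 98.3, 139 and 92.3 counts per 1000000 miRNA counts of the library (CPM) in high-fat libraries 1 to 4, against 50.5, 51.4, 48.7, 38.1 and 81.2 CPM in control libraries 1 to 5. The lowest high-fat value exceeded the highest control value. Its mean was 114 ± 22.2 CPM in high-fat milk (SD, n = 4) and 54.0 ± 16.1 CPM in control milk (SD, n = 5), a ratio of means of 2.11. The log2 fold change in the fit over all names was 1.13 ± 0.22 (SE).

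The 2 diets came closest in high-fat library 4 and control library 5. High-fat library 4 held 176 counts of the 5p arm, with a 95% Wilson interval of 79.7 to 107 CPM, and control library 5, the shallowest library, held 68, with an interval of 64 to 103 CPM. These intervals overlap. That of high-fat library 2, 88.9 to 109 CPM, also overlapped the interval of control library 5, while those of the remaining high-fat libraries lay above it. The intervals thus do not resolve control library 5 from high-fat libraries 2 and 4, though overlap is not itself a test of a gap. Besides control library 5, the other 4 controls held 61 to 134 counts. Besides high-fat library 4, the other 3 high-fat libraries held 282 to 383.

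The 3p arm measured 177, 191, 171 and 101 CPM in high-fat libraries 1 to 4, against 175, 119, 156, 104 and 110 CPM in control libraries 1 to 5. The diets overlapped over nearly their whole range, and high-fat library 4 was the lowest of all 9. The mean was 160 ± 40.2 CPM in high-fat milk (SD, n = 4) and 133 ± 31.1 CPM in control milk (SD, n = 5), and the log2 fold change was 0.25 ± 0.23 (SE). Without high-fat library 2, the highest, it was 0.07 ± 0.24.

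**Figure D1:**
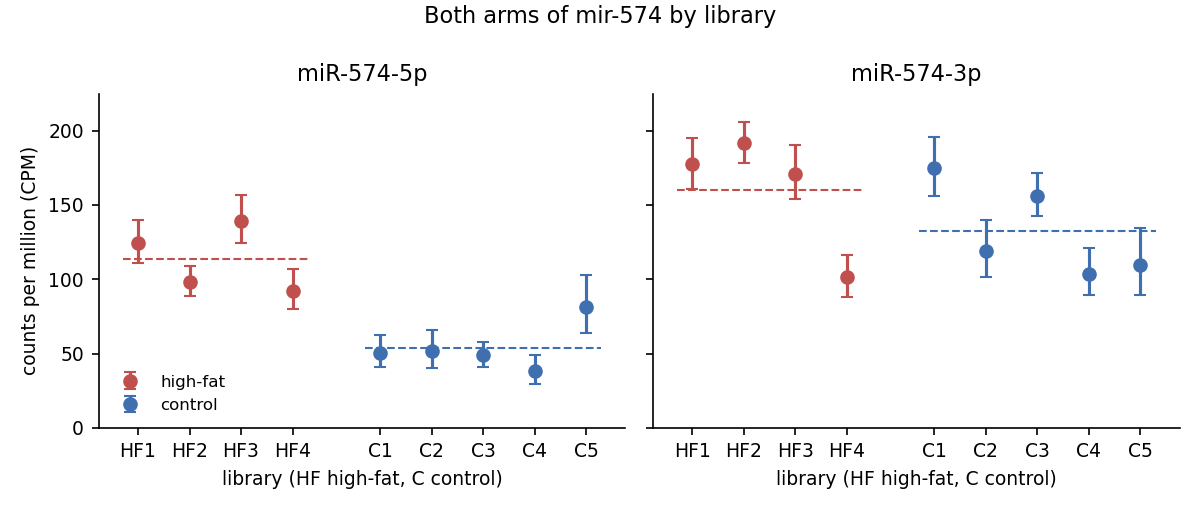
Level of each mir-574 arm in CPM (y axis) in every library (x axis), with high-fat libraries in red at the left of each panel and control libraries in blue. Points are libraries, bars are 95% Wilson intervals for counting error, and dashed lines are diet means: the 5p arm lay at 92.3 to 139 CPM in high-fat and 38.1 to 81.2 CPM in control libraries, while the 3p arm overlapped.

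Over all 312 tested names, limma-voom called none at an adjusted p of 0.05 (0%), and 32 had an unadjusted p below 0.05. Complete separation with higher levels in high-fat milk was seen for 8 of the 312 names (2.56%), which include miR-574-5p. Since that difference chose the hairpin, nothing is read from its place among them. The 5p arm ranked between 124 and 137 in level among the tested names in high-fat libraries and between 146 and 178 in controls. The 3p arm ranked between 110 and 134 in high-fat libraries and between 113 and 132 in controls. Both are thus minor miRNAs of milk fat, with 0.0114% ± 0.00222 of high-fat counts and 0.00540% ± 0.00161 of control counts for the 5p arm, and with 0.0160% ± 0.00402 of high-fat counts and 0.0133% ± 0.00311 of control counts for the 3p arm (SD, n = 4 high-fat and n = 5 control).

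The arms were then compared within each library, which needs no scaling between libraries. The 3p arm had more counts than the 5p arm in 9 of 9 dams. The mean log2 ratio of 5p to 3p was -0.94 ± 0.62 (SD, n = 9), and it differed from 0 with a two-sided exact sign-flip permutation p of 0.00391, the smallest that 9 dams allow. This comparison does not use the diets. The test takes the dams as independent, though cage mates may be among them. Whether library preparation and mapping weigh the arms equally was not tested.

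The 5p arm supplied 41.3%, 33.9%, 44.9% and 47.7% of the mir-574 counts in high-fat libraries 1 to 4, against 22.4%, 30.2%, 23.8%, 26.9% and 42.5% in control libraries 1 to 5. Control library 5 lay inside the high-fat range, with a 95% Wilson interval of 35.1% to 50.2% over 160 counts, and the other 4 controls lay below every high-fat library. In high-fat library 4 the interval of 42.7% to 52.8% took in an even split. The mean share was 42.0% ± 5.96 in high-fat milk (SD, n = 4) and 29.1% ± 8.04 in control milk (SD, n = 5).

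On the log2 scale the ratio of 5p to 3p was -0.47 ± 0.36 in high-fat milk and -1.31 ± 0.54 in control milk, a difference of 0.83 ± 0.30 (SE). Without control library 5 the difference was 1.05. The arms together measured 274 ± 54.2 CPM in high-fat milk (SD, n = 4) and 187 ± 32.0 CPM in control milk (SD, n = 5). Most of the difference of 87.3 CPM between these means was that of the 5p arm, 59.7 CPM, and that of the 3p arm was 27.6 CPM. The diet difference of the 5p arm chose the hairpin, so its larger part and the difference in ratio are descriptions only.

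**Figure D2:**
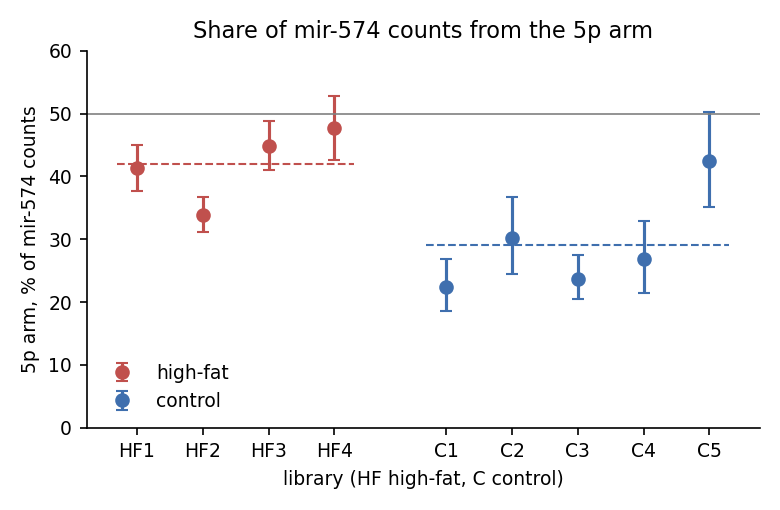
Share of mir-574 counts that came from the 5p arm, in percent (y axis), in every library (x axis), high-fat in red at the left and control in blue. Points are libraries, bars 95% Wilson intervals, dashed lines diet means and the grey line an even split: every library lay below 50%, and control library 5, at 42.5%, stood among the high-fat libraries.

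mir-574 was more evenly split than most hairpins. Of 101 hairpins with both arms tested, 11 had a smaller absolute mean log2 ratio of the arms, and the median absolute ratio was 4.51. The same arm was higher in all 9 libraries for 87 hairpins, and in 30, mir-574 among them, this was the 3p arm. The spread of the mir-574 ratio between dams of a diet, a pooled SD of 0.47, was near the median of 0.54 over hairpins.

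The arm balance of all these hairpins was described by diet in the same way, without a test. The diet difference in log2 arm ratio ran from -1.17 to 1.20, high-fat minus control, with a median of 0.0066. That of mir-574 was 11th in absolute size of 101. The hairpin was chosen on the diet difference of an arm that enters this ratio, so nothing is read from its rank. The rank also takes no account of the spread between dams. The neighbours of mir-574 in signed order were mir-582, with a difference of 0.85, and mir-322, with 0.81. No hairpin had arm ratios fully separated between diets in either direction (0% of 101). Exactly 1 arm was fully separated in 8 hairpins, and both arms in 0. The fitted fold changes of the arms were both above 0 in 31 hairpins, mir-574 included, both below 0 in 30 and of opposite sign in 40.

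**Figure D3:**
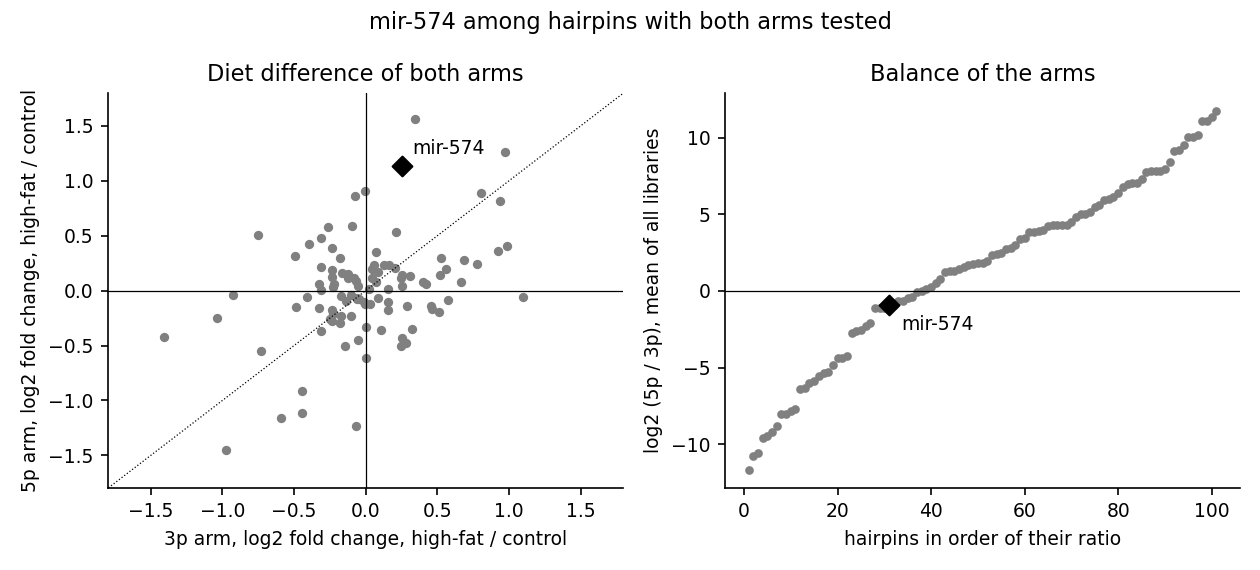
Left, log2 fold change of the 5p arm (y axis) against that of the 3p arm (x axis), high-fat over control, for 101 hairpins, with a dotted line of equal change; mir-574, the black diamond, lies at 1.13 and 0.25. Right, mean log2 ratio of 5p to 3p over 9 libraries (y axis) for the same hairpins in order (x axis), where mir-574 lies near an even split.

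Other miRNAs that carry a UG run were described next to the 5p arm, since their letters are alike. The motif was UGUGUGUG or GUGUGUGU, searched in the mature strand, and the 2 forms overlap in longer runs. It occurs in 9 of 1679 mature names (0.536%), 8 of them besides miR-574-5p. Of these 8, 4 were detected and 2 were tested. The 1679 names searched include 263 of the 312 tested names. Tested names with a UG run but no entry in the RefSeq table are therefore not counted, and their fold changes are not described here. The tested sequences follow, with the run in capitals.
miR-32-3p: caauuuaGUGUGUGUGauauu
miR-672-5p: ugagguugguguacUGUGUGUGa

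miR-32-3p, from the 3′ arm of mir-32, measured 18.4, 36.4, 17.8 and 23.1 CPM in high-fat libraries 1 to 4, against 32.1, 24.1, 16.4, 26.3 and 27.5 CPM in control libraries 1 to 5, with overlap throughout. miR-672-5p measured 7.71, 7.44, 8.41 and 6.82 CPM in high-fat libraries 1 to 4, against 13.1, 12.1, 14.9, 10.6 and 10.7 CPM in control libraries 1 to 5. All 4 high-fat libraries lay below the controls, as for 5 of the 312 tested names (1.60%), and these levels rest on 9 to 41 counts a library. The log2 fold change was -0.0044 ± 0.33 for miR-32-3p and -0.73 ± 0.29 for miR-672-5p. The detected but untested names, miR-1187 and miR-3082-5p, had at most 2 counts in any library.

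miR-21a-5p, let-7b-5p and miR-29a-3p, which like miR-574-5p have been described as ligands of TLR7 or TLR8, were far more abundant. miR-21a-5p measured 44729 ± 11719 CPM in high-fat milk (SD, n = 4) and 64991 ± 11017 CPM in control milk (SD, n = 5). let-7b-5p measured 5179 ± 661 CPM in high-fat and 6018 ± 1626 CPM in control milk, and miR-29a-3p measured 12013 ± 1134 CPM in high-fat and 11740 ± 1410 CPM in control milk. The log2 fold change was -0.55 ± 0.17 for miR-21a-5p, -0.17 ± 0.20 for let-7b-5p and 0.04 ± 0.13 for miR-29a-3p (SE). It was above 0 in 1 of the 3, with a median of -0.17, beside 158 of 312 names and a median of 0.0040 over all tested. The list as a whole made up 5.41% to 7.75% of counts in high-fat and 7.14% to 9.92% in control libraries.

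The names most like each arm across the 9 libraries were listed by Pearson's r of log2 CPM, as a description. For miR-574-5p these were miR-10a-3p, miR-9-5p, miR-181a-1-3p, miR-340-3p and miR-10a-5p, with r of 0.75 for the first and 0.73 for the fifth. These values hold the difference between diets as well as that between dams. With the mean of each diet subtracted, they were miR-17-3p at 0.90, miR-181b-5p at 0.89, miR-3473e at 0.85, miR-24-1-5p at 0.84 and miR-3473b at 0.82. For miR-574-3p the first 5 were miR-30d-5p at 0.73, miR-450a-5p at 0.71, miR-191-5p, miR-93-3p and miR-501-5p, the last 3 all at 0.64. With the diet means subtracted they were miR-30d-5p at 0.78, miR-362-5p at 0.76, miR-185-5p at 0.74, miR-672-5p at 0.73 and miR-324-3p at 0.68. With 1 library left out, the lowest r in this last list ran from 0.24 for miR-324-3p to 0.69 for miR-672-5p. In the matching 5p list it ran from 0.64 for miR-3473b to 0.87 for miR-17-3p. Each list was picked as the highest r among all tested names, so its values are high by choice. The list of each arm held none of the other's names, which says little, as each list holds 5 of the 312 tested names. By the same measure the 2 arms had r of 0.39 with each other, and 0.15 with the diet means subtracted. With 1 library left out these ran from 0.20 to 0.55 and from -0.09 to 0.51, so the second changed sign with the libraries used. Among the other tested names the 3p arm was 60th in likeness to the 5p arm, and 139th with the diet means subtracted. In likeness to the 3p arm, the 5p arm was 48th, and 120th with the diet means subtracted. All of these share library depth, and the 5p values of control libraries rest on 61 to 134 counts.

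Some libraries stood apart in miRNAs of other cells. In these mixed samples, fewer cells of a type and less RNA per cell cannot be told apart. The list of 9 miRNAs of the secretory epithelium, all detected in every library, held 50.3% to 53.0% of counts in high-fat and 47.1% to 53.1% in control libraries, with the lowest share in control library 5. The 7 leukocyte miRNAs, all detected in every library, held 1.23%, 0.0314%, 0.353% and 0.0605% of counts in high-fat libraries 1 to 4 and 0.0654% to 0.106% in controls. Of the 7, 7 had a log2 fold change above 0, with a median of 0.71, beside 158 of 312 names and a median of 0.0040 over all tested. miR-150-5p reached the filter level in high-fat libraries 1, 3 and 4 but, among controls, only in library 5. Nothing is therefore read from its sign or from the count it enters. The SE exceeded the fold change for miR-223-3p (0.48 ± 1.37), miR-142a-3p, miR-150-5p and miR-155-5p, and not for miR-142a-5p, miR-146a-5p and miR-342-3p. miR-223-3p measured 7847, 27.2, 760 and 80.3 CPM in high-fat libraries 1 to 4. The endothelial miRNAs, miR-126a-3p and miR-126a-5p, held 0.00291%, 0.00105%, 0.00267% and 0.00205% of counts in high-fat libraries 1 to 4 and 0.000643% to 0.00220% in controls. The log2 fold change was 0.34 ± 0.60 for miR-126a-3p and 1.56 ± 0.57 for miR-126a-5p (SE). miR-126a-5p had 15 to 25 counts in high-fat and 0 to 11 in control libraries. It reached the filter level in every high-fat library but, among controls, only in library 1, so nothing is read from its sign. The 2 high-fat libraries with the highest leukocyte and endothelial shares, 1 and 3, were also the 2 with the most miR-574-5p. Without them the log2 fold change was 0.96 ± 0.25 for the 5p arm and 0.18 ± 0.30 for the 3p arm. The part of these cells' miRNAs in the mir-574 values was not tested beyond that fit.

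Control library 5, the control with the most miR-574-5p, also held the most of miR-3470a and miR-3470b. The whole sequence of miR-3470b stands in transcripts of 590 other genes. The pair made up 0.000539% to 0.00126% of counts in high-fat libraries, against 0.0666% in control library 5 and 0.00669% to 0.0126% in the other 4 controls. Their part in the miR-574-5p value of that library was not tested. Without control library 5 the log2 fold change was 1.24 ± 0.21 for the 5p arm and 0.20 ± 0.24 for the 3p arm. Over the 9 fits that each left out 1 library, the 5p value ran from 1.03 to 1.24 and the 3p value from 0.07 to 0.38.

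**Figure D4:**
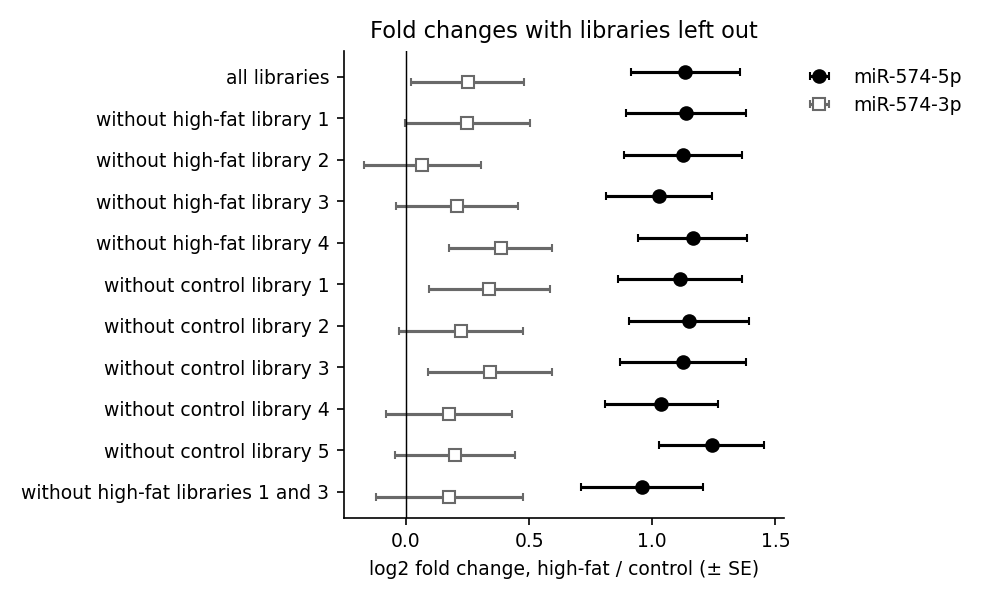
Log2 fold change, high-fat over control, with its SE (x axis) for miR-574-5p (filled circles) and miR-574-3p (open squares) over all libraries and with libraries left out (y axis). The 5p values lay between 0.96 and 1.24 and the 3p values between 0.07 and 0.38.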

How the data were processed

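Small RNA was sequenced from milk fat of 9 dams, and the authors deposited 1 table of read counts, 2059 rows of a precursor and a mature name by 9 dams, with commas inside the numbers in 833 cells. cutadapt 1.9.1 and the build GRCm38 are listed in the submitters' processing notes. No source used here names the aligner, the counting rule for reads that match several places, the miRBase release or any merging of PCR copies.

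The highest row per name and library was kept, giving totals of 837817 to 3897109. Counts were scaled to these totals (counts per 1000000, CPM). Wilson intervals at 95% cover counting error only, as reads carry no molecular identifiers here. A name was tested if it reached 10 counts, scaled to the median library, in at least 4 libraries and 15 in total. limma 3.58.1 in R 4.3.3 fitted log2 CPM with voom weights and trimmed-mean factors, with diet as the only term. The commas were removed and the values were used as whole-number counts. No count model was fitted, a choice made because the unit check did not accept the numbers with commas as plain counts. Arm ratios had 0.5 added to each count. Sequences are from the RefSeq table for GRCm38.p6, where 1623 mature names matched the table. Transcripts and gene models are GENCODE M21, and the hairpin was folded with RNAfold 2.7.2. The miRNAs, lists and rules were chosen with earlier results of these data known. The names described were the 2 arms, the 5 names most alike in pattern to each, names sharing a seed, UG-repeat and Toll-like receptor lists and the hairpins next in order. Same-diet libraries differed by more than sampling noise.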

Additional observations from a re-analysis of the deposited data

Results flagged for a closer look

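By Dixon's test at 95%, no library stood far from its diet in either mir-574 arm, in their sum or in the 5p share. Of 34 groups of values searched, 5 did, where 1 in 20, or 1.7, is due by chance. The erythrocyte miRNAs held 0.0650% of counts in high-fat library 3, where the next highest on that diet held 0.00971%. The striated muscle miRNAs held 0.00979% in the same library, with 0.000525% in the next. The stromal miRNAs held 2.57% in high-fat library 4, the library with the least miR-574-3p, with 1.26% in the next of that diet. The pair miR-3470a and miR-3470b held 0.0666% in control library 5, with 0.0126% in the next control. The secretory epithelium miRNAs held 47.1% in control library 5, the lowest, with 51.9% in the next control. The part of these differences in the mir-574 values was not tested beyond the fits without each library.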

How the results depend on the processing

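The log2 fold change of miR-574-5p stayed between 0.96 and 1.27 and that of miR-574-3p between 0.07 and 0.38 over 16 alternatives each. The diet difference in arm ratio ran from 0.71 to 1.05 over 12, and the mean log2 ratio of 5p to 3p over all dams ran from -1.09 to -0.83 over 11. Its exact permutation p is the smallest that the number of dams allows in each case and says nothing of stability. The count of names called by limma-voom was 0 as reported, 4 without the filter on low counts, which moved the median log2 fold change to -0.21, and 2 with library quality weights, miR-10b-5p and miR-574-5p. It was 0 to 4 with 1 library left out, the 4 being miR-10b-5p, miR-3470a, miR-3470b and miR-574-5p without control library 5. With a replicate block it was 3, miR-574-5p not among them, with a log2 fold change of 1.27 ± 0.21, and control library 5, which has no partner, carries no weight in that fit. Since the diet difference of miR-574-5p chose the hairpin, nothing is read from whether a fit called it. The replicate numbers are given within each diet, the deviations of same-numbered libraries correlated at -0.16 to 0.20 over 312 names, and not every library correlated best with its own number, so the numbers were not taken as pairs. Names fully separated between diets numbered 8 higher and 5 lower in high-fat milk. With 1 library left out they ran from 8 to 17 and from 5 to 21, highest without high-fat library 2 and high-fat library 1. Without high-fat libraries 1 and 3 they were 24 and 29, where fewer libraries make separation easier, and without the filter 8 were lower. The causes of the other changes were not tested. With 61 to 134 counts of miR-574-5p in control libraries, counting error limits small differences between dams.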
